A study of Mus musculus with 33 samples.

Results

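The step examined here was that between proNeu1 and proNeu2, the consecutive committed neutrophil progenitors of mouse bone marrow, during sepsis. Its members were the 6 libraries, of 33 in the deposited gene count table, whose cell type label named septic proNeu2 (3 libraries) or septic proNeu1 (3 libraries), and all genes were considered. The septic cells came from mice killed at day 3 of mid-grade CLP (caecal ligation and puncture), an operation in which gut contents leak into the abdomen and cause peritonitis. The groups set beside them were proNeu2 and proNeu1 sorted with the same scheme from wild-type control mice (3 libraries each), together with the stages before and after in septic marrow, Ly6C-negative granulocyte-monocyte progenitors (Ly6C- GMP) and preNeu (3 libraries each). No engineered allele or drug was named for any of these groups. Strain, age and sex were not given in the sources used here, and neither was whether a library pooled animals. Every library is bulk RNA from a sorted gate, so a lower transcript level can mean fewer cells that carry it or less of it per cell, and these cannot be told apart.

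Neutrophil progenitors assemble their granules in order. The azurophil proteins, such as myeloperoxidase and the elastase-family proteases, are transcribed first, in the promyelocyte, and the specific granule proteins, such as lactoferrin, follow in the myelocyte under C/EBP-family transcription factors. The phagocyte NADPH oxidase and the CD11b/CD18 integrin are built up over the same stages, cell division ends after the preNeu stage, and the alternative monocyte fate, which depends on Irf8, is lost. During sepsis the marrow must replace consumed neutrophils, and this path is the one that supplies them.

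Total counts were 22.5, 17.4 and 22.9 Mcounts (megacounts) in the septic proNeu2 libraries and 6.43, 27 and 21 Mcounts in the septic proNeu1 libraries, so septic proNeu1 replicate 1 was measured at less depth than the other 5. Levels are given below as CPM (counts per megacount of the library), scaled between libraries with TMM factors, and a gene was called changed at an adjusted p under 0.05 in edgeR's quasi-likelihood test over 18198 genes. On the second principal component of the 12 proNeu libraries, which held 16.4% of the variance, septic proNeu2 lay at 7.83, 16.26 and 17.44 and septic proNeu1 at -18.15, -8.37 and -9.9. Control proNeu2 lay at 13.74, 16.67 and 10.7 on that component and control proNeu1 at -13.84, -15.21 and -17.17, so both marrows separated the stages along it. On the third component (9.57% of the variance) septic proNeu2 lay at -1.05, 10.57 and 17.99 and septic proNeu1 at -11.34, -9.53 and -8.89, while control proNeu2 lay at -3.41, -12.11 and -13.09 and control proNeu1 at 13.11, 12.13 and 5.61, so the order of the stages along it was the other way round in control marrow. Septic proNeu1 replicate 1 was the lowest of its group for 61 of the 77 genes that rose and the highest for 31 of the 54 that fell. Septic proNeu2 replicate 1 lay nearer to proNeu1, being the lowest of its group for 49 of the 77 and the highest for 36 of the 54. The mitochondrial share of counts was 2.4, 1.3 and 1.36% in septic proNeu2 and 1.9, 1.17 and 1.2% in septic proNeu1, so the same 2 libraries were the highest of their groups, and the part of this share in the results was not tested.

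**Figure D1:**
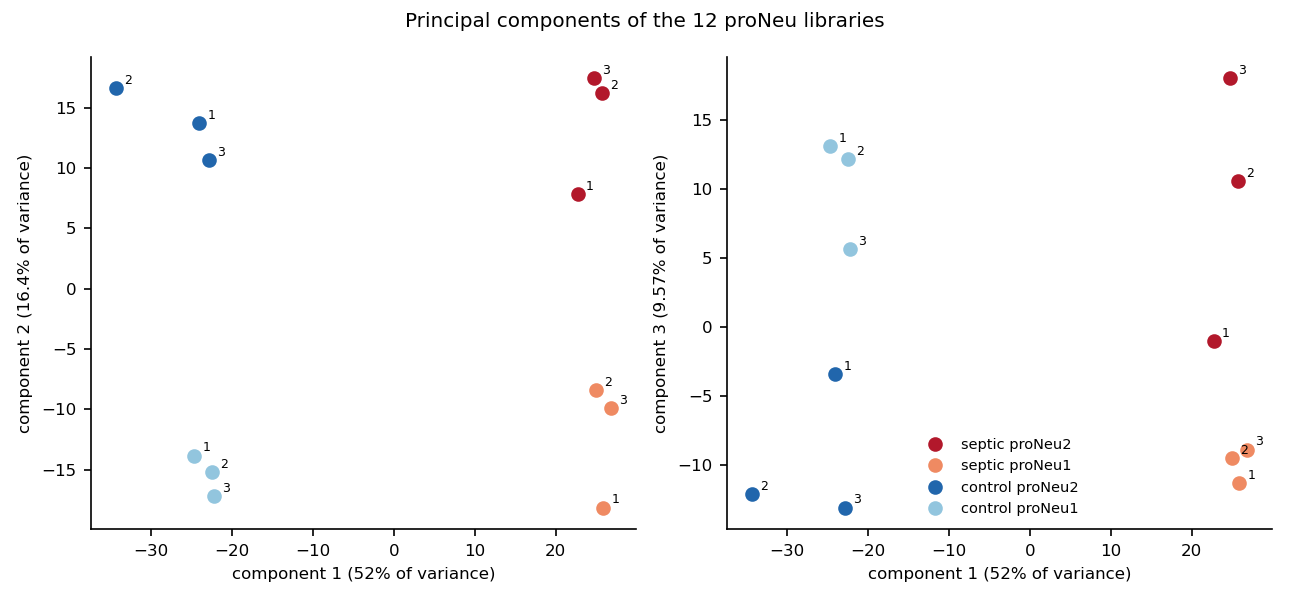
Principal components of the 12 proNeu libraries, computed on log2 CPM, with component 1 (52% of the variance) on the horizontal axes, component 2 (16.4%, left) or 3 (9.57%, right) on the vertical axes, and 1 point per library with its replicate number. Component 2 separates proNeu2 (above 0) from proNeu1 (below 0) in both septic and control marrow, with septic proNeu2 replicate 1 nearest to 0 among the proNeu2 libraries, and component 3 separates the septic stages in the opposite order to the control stages.

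Defining markers were checked against the labels first. Transcripts of Mpo, encoding myeloperoxidase, stood at 29180.5, 27862 and 27638 CPM in septic proNeu2 and at 22865, 25968 and 24197 CPM in septic proNeu1. Ly6g, a marker of mature neutrophils, was at 0.456, 0.948 and 0.365 CPM in septic proNeu2 and at 0.298, 0.367 and 0 CPM in septic proNeu1, so both gates held early cells with few mature neutrophils. Septic Ly6C- GMP, the stage before, held Mpo at 18583, 20659 and 17633 CPM and Ly6g at 0.154, 0.072 and 0 CPM. These 2 genes therefore do not tell proNeu from that stage. Vcam1 encodes CD106 and Itgam encodes CD11b, the surface proteins that separate proNeu2 from proNeu1 in the published definition of these stages, and their values therefore check the sort. Vcam1 stood at 120.1, 157 and 147 CPM in septic proNeu2 and at 18.6, 27.5 and 20.1 CPM in septic proNeu1. Itgam stood at 34.3, 35.1 and 30.9 CPM in septic proNeu2 and at 7.16, 15.6 and 12.8 CPM in septic proNeu1. Neither gene's groups overlapped.

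Between septic proNeu2 and septic proNeu1, 131 genes (0.72% of those tested) were called changed. Of these, 77 were higher in septic proNeu2 (0.423%) and 54 lower (0.297%), and 39 of the higher and 44 of the lower genes changed at least 2-fold. The 3 libraries of each group did not overlap for 130 of the 131, a condition that 20.4% of all genes tested met. The median log2 difference was 1.01 over the genes that rose and -1.45 over those that fell, against 0.01 over all genes tested. The number of calls depended on which libraries entered. It was 214 (90 higher, 124 lower) without septic proNeu2 replicate 1, 37 (28 and 9) without replicate 2 and 29 (24 and 5) without replicate 3 of that group. It was 17 (13 higher, 4 lower) without septic proNeu1 replicate 1, 101 (82 and 19) without replicate 2 and 47 (27 and 20) without replicate 3, so the balance of higher and lower calls also depended on the libraries. Septic proNeu2 replicates 2 and 3 and septic proNeu1 replicates 1 and 3 are called the 4 deciding libraries below, since leaving out any 1 of them lowered the count by more than 1.5 times. All 131 kept their sign in each of the 15 alternative fits, and 8 were called in every one, among them Prg2, Epx, Ear2 and the sort marker Vcam1, which rose, and Ccr2, Mndal and Apba1, which fell (Mndal and Apba1 are named after their values were seen). Leaving out each of the 6 libraries in turn, 16 genes were called every time, 13 of them higher and 3 lower.

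The same step in control marrow gave 555 calls (3.05%), 285 higher in control proNeu2 (1.57%) and 270 lower (1.48%). The septic and control comparisons share no library. Of the genes called in the septic step, 44 were also called in the control step, which is 33.6% of the septic calls and 7.93% of the control calls; 31 of them were higher in proNeu2 in both marrows and 12 lower in both. Of the 77 genes that rose in septic marrow, 67 (87%) had a positive control difference, whereas 46.1% of all genes tested did. Of the 54 that fell, 26 (48.1%) had a negative control difference, against 50.5% of all genes tested. By these counts, which carry no test, the genes that rose mostly had the control sign and those that fell had it about as often as genes at large. The difference between the 2 steps was tested directly for each gene, and 77 genes (0.423%) passed that interaction test.

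**Figure D2:**
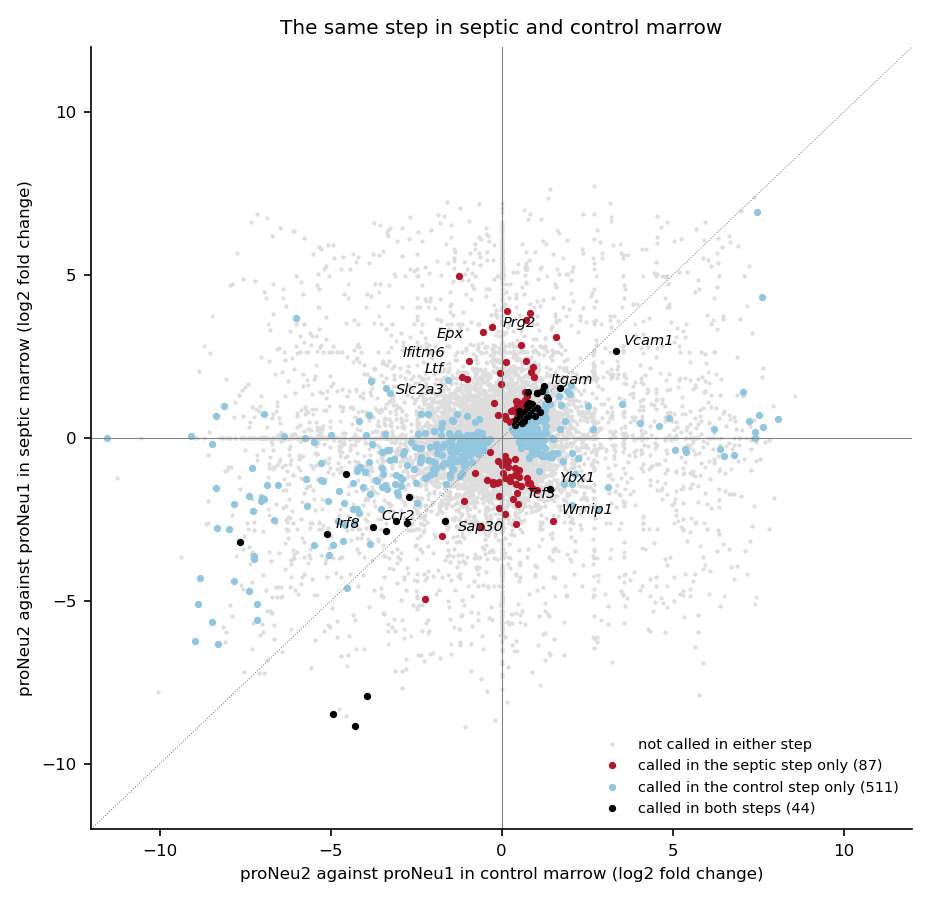
Log2 difference of proNeu2 over proNeu1 in septic marrow (vertical axis) against the same difference in control marrow (horizontal axis), 1 point per gene tested, with genes called in each step coloured. Most genes that rose in the septic step lie right of 0 in the control step (67 of 77), while those that fell lie on both sides (26 of 54 below 0).

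Specific granule genes made up the largest called group among the lists examined. Of 20 genes in the list, 10 rose in septic proNeu2 and 0 fell, and all 20 had a positive difference, with a median log2 difference of 1.18. Of all 18198 genes tested, 0.423% rose and 9240 had a positive difference. In control marrow 4 of the 20 were higher in proNeu2, 0 were lower and the median was 0.44. Summed over the list, transcripts reached 8838, 14345 and 12159 CPM in septic proNeu2, against 4065, 8017 and 5293 CPM in septic proNeu1.

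Camp, which encodes the cathelicidin antimicrobial peptide, stood at 66.9, 99.1 and 132 CPM in septic proNeu2 and at 10.6, 29.6 and 16.6 CPM in septic proNeu1. Ngp, a cystatin-like neutrophil granule protein, stood at 328, 649 and 684 CPM in septic proNeu2 and at 55.9, 152 and 118 CPM in septic proNeu1. In both genes every proNeu2 library lay above every proNeu1 library, with replicate 1 the lowest of its group on each side. The log2 differences were 2.35 ± 0.40 (SE, adjusted p = 0.00341) for Camp and 2.34 ± 0.50 (adjusted p = 0.0208) for Ngp. In control marrow they were 0.70 ± 0.37 (adjusted p = 0.34) for Camp and 0.12 ± 0.47 (adjusted p = 0.973) for Ngp. Their interactions were 1.65 ± 0.54 and 2.22 ± 0.68, neither of them called (adjusted p = 0.238 and 0.191).

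Fcnb, encoding ficolin B, a lectin that recognises microbial sugars, stood at 536, 563 and 539 CPM in septic proNeu2 and at 136, 256 and 174 CPM in septic proNeu1. Its groups lay well apart, with a log2 difference of 1.53 ± 0.24 (adjusted p = 0.00151). In control marrow it stood at 2235, 2028 and 1552 CPM in proNeu2 and at 650.1, 628 and 513 CPM in proNeu1, a log2 difference of 1.70 ± 0.24 (adjusted p = 0.000137). The interaction for Fcnb was -0.17 ± 0.33 (adjusted p = 1).

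Ltf, encoding lactoferrin, the iron-binding protein that defines the specific granule, moved differently in the 2 marrows. It stood at 129, 127 and 125 CPM in septic proNeu2 and at 27.9, 37.1 and 37.9 CPM in septic proNeu1, with no overlap and a log2 difference of 1.88 ± 0.44 (adjusted p = 0.0343). Control marrow had 653, 281 and 335 CPM in proNeu2 and 1357, 649 and 803 CPM in proNeu1, groups that overlapped slightly, with a log2 difference of -1.15 ± 0.42 (adjusted p = 0.141). The interaction was 3.02 ± 0.60 (adjusted p = 0.0155). The septic call held in 1 of the 6 fits that left out a library, that without septic proNeu2 replicate 1, with adjusted p from 0.0494 to 0.215. All septic proNeu libraries lay below all control proNeu libraries in Ltf. Ly6g, the mature neutrophil marker, stood at 2.11, 0 and 0 CPM in control proNeu2 and at 4.66, 2.47 and 1.91 CPM in control proNeu1, and the collagenase gene Mmp8 at 15.8, 3.98 and 1.11 CPM in control proNeu2 and at 52.4, 10.8 and 7.87 CPM in control proNeu1. The means of these 2 later-stage markers were higher in control proNeu1, as that of Ltf was, but their control groups overlapped. Cxcr2, another later-stage marker, went the other way, at 10.8, 15.9 and 9.59 CPM in control proNeu2 and 7.96, 6.89 and 6.68 CPM in control proNeu1. A list of 25 late neutrophil genes also summed higher in control proNeu2 (2674, 2483 and 2352 CPM) than in control proNeu1 (2017, 1703 and 1532 CPM). The part of later-stage cells in the Ltf difference was not tested. The Ltf interaction kept its call in 13 of 19 alternatives, with adjusted p from 0.000451 to 0.302, and lost it with limma, without a filter on low counts, and when septic proNeu1 replicate 1, control proNeu2 replicate 2 or 3 or control proNeu1 replicate 1 was left out.

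Itgb2l, a beta-2-like integrin chain found in neutrophils, had a log2 difference of 2.03 ± 0.39 (adjusted p = 0.00959), with 65.4, 86.6 and 97.2 CPM in septic proNeu2 and 13.7, 21.1 and 25 CPM in septic proNeu1. Chil1, a chitinase-like protein, had 48.8, 53.3 and 62.7 CPM in septic proNeu2 and 8.35, 19.2 and 12.9 CPM in septic proNeu1, a log2 difference of 1.98 ± 0.44 (adjusted p = 0.0249). Cd177, a surface protein of neutrophils, had 451, 859.7 and 904 CPM in septic proNeu2 and 112, 333 and 249.7 CPM in septic proNeu1, a log2 difference of 1.67 ± 0.40 (adjusted p = 0.0384). None of these 3 genes overlapped between the septic groups. In control marrow Itgb2l differed by 0.87 ± 0.37 and Chil1 by -0.05 ± 0.41, and neither was called. The interactions of Itgb2l and Chil1 were 1.16 ± 0.53 and 2.03 ± 0.60, also not called (adjusted p = 0.505 and 0.165). The other list members that rose were Anxa1, Pglyrp1 and Hp, with log2 differences of 0.85, 0.81 and 0.51 (named after their values were seen). Among the 6 fits that left out a library, Camp lost its call only without septic proNeu1 replicate 1, where its adjusted p was 0.0522, Itgb2l lost its call without septic proNeu2 replicate 3 and septic proNeu1 replicate 1, and Ngp, Chil1 and Cd177 lost theirs when any 1 of the 4 deciding libraries was left out, with adjusted p up to 0.12, 0.181, 0.197 and 0.296. The count of 10 was 1 (Fcnb) without septic proNeu1 replicate 1, and 3, 2 and 3 without septic proNeu2 replicate 2, septic proNeu2 replicate 3 and septic proNeu1 replicate 3.

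**Figure D3:**
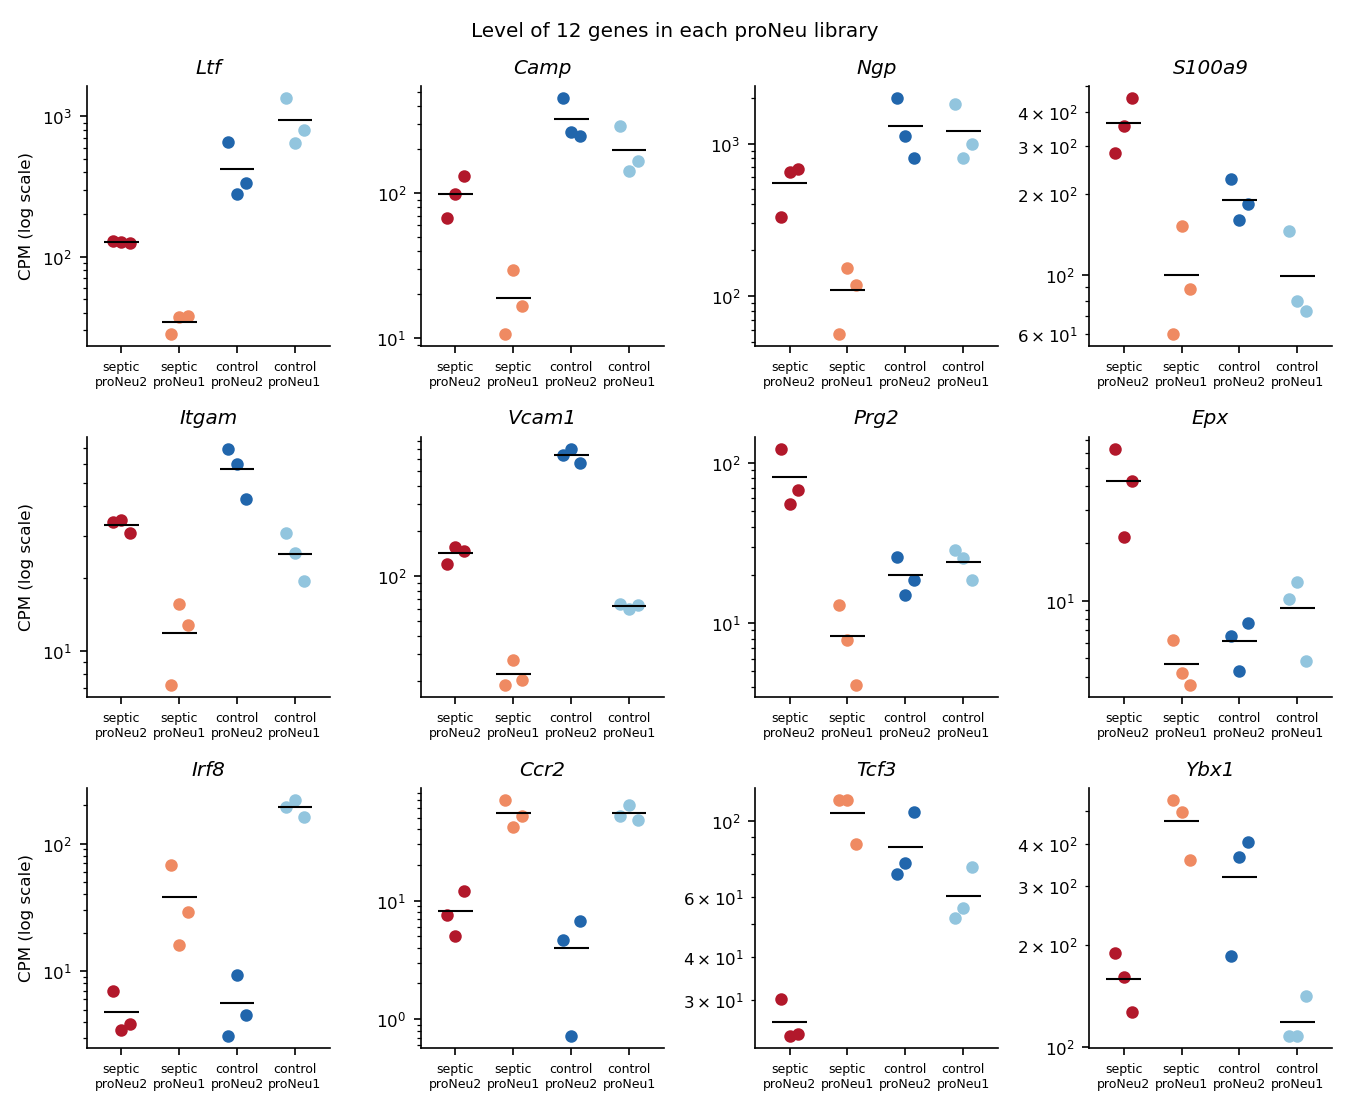
CPM (log axis) of 12 genes in each library of septic proNeu2, septic proNeu1, control proNeu2 and control proNeu1, left to right in each panel, with 1 point per library and a bar at the group mean. Septic proNeu2 lies above septic proNeu1 without overlap in the first 8 genes (Ltf to Epx) and below it in the last 4 (Irf8, Ccr2, Tcf3 and Ybx1), whereas Ltf, Prg2 and Epx are not higher in control proNeu2 than in control proNeu1.

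The promoters of 4 specific granule genes that rose are shown because the list moved together and because C/EBP factors, which bind palindromes around TTGCNNAA, control specific granule genes. Each is the stretch of 250 bases before the first listed transcription start (RefSeq, GRCm38.p6), read 5′ to 3′ on the gene's strand, with matches to TTGCNNAA on either strand in capitals. They lie at chr9:110419558-110419807 (+) for Ngp, chr9:111019042-111019291 (+) for Ltf, chr2:28084879-28085128 (-) for Fcnb and chr9:109849457-109849706 (-) for Camp.
Ngp: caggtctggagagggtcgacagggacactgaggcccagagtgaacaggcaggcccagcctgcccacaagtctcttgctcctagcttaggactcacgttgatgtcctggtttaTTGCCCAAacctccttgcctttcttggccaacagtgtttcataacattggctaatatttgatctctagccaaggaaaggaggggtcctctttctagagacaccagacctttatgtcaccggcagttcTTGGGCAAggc
Ltf: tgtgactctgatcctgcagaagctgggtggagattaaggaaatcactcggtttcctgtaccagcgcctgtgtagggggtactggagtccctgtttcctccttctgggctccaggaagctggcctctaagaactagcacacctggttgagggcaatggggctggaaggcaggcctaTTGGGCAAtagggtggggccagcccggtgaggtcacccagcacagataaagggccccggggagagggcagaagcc
Fcnb: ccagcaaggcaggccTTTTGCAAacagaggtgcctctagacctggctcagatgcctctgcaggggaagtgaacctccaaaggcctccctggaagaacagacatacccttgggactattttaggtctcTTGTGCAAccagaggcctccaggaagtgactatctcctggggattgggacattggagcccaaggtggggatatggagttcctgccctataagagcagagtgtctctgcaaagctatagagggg
Camp: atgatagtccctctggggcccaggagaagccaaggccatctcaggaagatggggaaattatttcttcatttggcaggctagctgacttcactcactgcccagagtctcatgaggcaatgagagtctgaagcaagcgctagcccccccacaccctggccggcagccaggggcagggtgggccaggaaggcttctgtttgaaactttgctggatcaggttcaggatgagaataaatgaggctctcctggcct

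The Ngp window held the motif TTGCCCAA 138 bases before the start and TTGGGCAA 11 bases before it. The Ltf window held TTGGGCAA 75 bases before the start, the Fcnb window held TTTTGCAA and TTGTGCAA 235 and 123 bases before it, and the Camp window held no match. Searching both strands, 7 of the 17 specific granule genes with a promoter in the table held a match (41.2%), as did 2582 of 27025 genes in the genome (9.55%). Of all genes called in the septic step, 12 of 61 that rose (19.7%) and 2 of 44 that fell (4.55%) held one. A match describes the letters in the window and not binding.

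Azurophil granule genes gave few calls. Of 13 tested, 1 rose and 0 fell, where 0.423% of all genes tested rose. The median log2 difference was 0.29, and 12 of the 13 were positive, against 9240 of all 18198 genes tested. The septic groups did not overlap for 11 of the 13, with 10 of these higher in proNeu2, against 20.4% of all genes. Summed over the list, transcripts reached 51223, 49501 and 49006 CPM in septic proNeu2, against 37557, 44337 and 39796 CPM in septic proNeu1. The gene that rose was Serpinb1a, an intracellular inhibitor of neutrophil serine proteases, which stood at 1667, 1984 and 1768 CPM in septic proNeu2 and at 918, 1341 and 1044 CPM in septic proNeu1 (log2 difference 0.71 ± 0.14, adjusted p = 0.0171), a call lost when any 1 of the 4 deciding libraries was left out (adjusted p from 0.00602 to 0.181 over the 6 fits). Mpo differed by 0.21 ± 0.15 (adjusted p = 0.695). Elane, encoding neutrophil elastase, stood at 8866, 8099 and 7820.0 CPM in septic proNeu2 and at 5235, 6567 and 5627 CPM in septic proNeu1, which did not overlap, but the log2 difference of 0.51 ± 0.22 missed the threshold (adjusted p = 0.395). Both stages were below their controls in Mpo: control proNeu2 held 59438, 66755 and 69721 CPM and control proNeu1 52828, 55800.3 and 58528 CPM.

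Of 25 late neutrophil genes, 4 rose and 0 fell, where 0.423% of all genes tested rose. The median log2 difference was 0.85 in septic marrow and -0.20 in control marrow, where 3 rose and 1 fell. S100a8 and S100a9 encode the 2 chains of calprotectin, a calcium- and zinc-binding antimicrobial complex. S100a8 stood at 768, 781 and 977 CPM in septic proNeu2 and at 212, 444 and 285 CPM in septic proNeu1, a log2 difference of 1.42 ± 0.29 (adjusted p = 0.018). S100a9 stood at 282, 357 and 453 CPM in septic proNeu2 and at 60, 151 and 88.5 CPM in septic proNeu1, a log2 difference of 1.86 ± 0.38 (adjusted p = 0.017). Every septic proNeu2 library lay above every septic proNeu1 library for both chains. Ifitm6, a member of the interferon-induced transmembrane family, stood at 8.76, 31.2 and 29.1 CPM in septic proNeu2 and at 0.597, 6.61 and 4.84 CPM in septic proNeu1, and rose by 2.35 ± 0.42 on the log2 scale (adjusted p = 0.00582). In control marrow Ifitm6 stood at 3.65, 1.84 and 3.13 CPM in proNeu2 and at 4.66, 4.64 and 6.99 CPM in proNeu1, and the interaction was 3.30 ± 0.61 (adjusted p = 0.00907). The fourth gene was Itgam, given above with the sort markers, so its place in this count reflects the gate. The 4 calls were 1 without septic proNeu2 replicate 2 or 3 and 1 without septic proNeu1 replicate 1 or 3.

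The phagocyte NADPH oxidase, which makes superoxide for microbial killing, gave calls in one direction. Of its 6 subunit genes, 4 rose and 0 fell, and for all 6 the septic groups did not overlap. Of all genes tested, 0.423% rose and 20.4% did not overlap. The median log2 difference over the 6 was 0.62 in septic marrow and 0.66 in control marrow, where 3 rose. Cybb, the catalytic gp91phox chain, stood at 789.9, 1047 and 953 CPM in septic proNeu2 and at 445, 591 and 502 CPM in septic proNeu1 (log2 difference 0.86 ± 0.19, adjusted p = 0.0264). Ncf4, the cytosolic p40phox subunit, stood at 381, 436 and 463 CPM in septic proNeu2 and at 229.7, 288 and 284 CPM in septic proNeu1 (0.67 ± 0.12, adjusted p = 0.00594). Cyba, the membrane partner of Cybb, rose by 0.68 ± 0.16 (adjusted p = 0.0389), and the small GTPase Rac2 by 0.45 ± 0.11 (adjusted p = 0.0445). The septic and control differences lay close for each of the 4, with interactions from -0.10 to 0.07. Leaving out septic proNeu2 replicates 1, 2 or 3 left 2, 1 and 0 of the 4 calls, and leaving out septic proNeu1 replicates 1, 2 or 3 left 0, 3 and 1.

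A few adhesion genes were also higher. Itgb2, encoding CD18, the partner chain of CD11b, stood at 358, 457 and 464 CPM in septic proNeu2 and at 178, 221 and 217 CPM in septic proNeu1. Its log2 difference was 1.05 ± 0.13 (adjusted p = 0.000315), the lowest in the septic step among the genes named here, and it was 0.89 ± 0.13 in control marrow (adjusted p = 0.000266). It was called in each of the 6 fits that left out a library. Of 26 chemokine receptor and adhesion genes, 3 rose and 0 fell, where 0.423% of all genes tested rose. The 3 were Vcam1, Itgb2 and the tetraspanin gene Cd9, and the median log2 difference of the list was 0.07. Vcam1 is a sort marker, so its place in this count reflects the gate. The Cd9 call was lost when any 1 of the 4 deciding libraries was left out (adjusted p from 0.00449 to 0.165 over the 6 fits). For Vcam1 the difference was 2.67 ± 0.40 (adjusted p = 0.00105) in septic marrow and 3.33 ± 0.41 (adjusted p = 1.43e-05) in control marrow, where proNeu2 held 638, 704 and 571 CPM and proNeu1 held 65.1, 60.2 and 64.2 CPM.

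Slc2a3, encoding the glucose transporter GLUT3, was the single member of 18 glycolysis genes that was called. It stood at 34.4, 59 and 78.7 CPM in septic proNeu2 and at 11.6, 18.9 and 18 CPM in septic proNeu1, with no overlap and a log2 difference of 1.80 ± 0.39 (adjusted p = 0.0208). In control marrow it stood at 14.9, 7.86 and 17.9 CPM in proNeu2 and at 45, 17.8 and 20.9 CPM in proNeu1, and the interaction was 2.82 ± 0.55 (adjusted p = 0.0125). The septic call was lost when any 1 of the 4 deciding libraries was left out (adjusted p from 0.0101 to 0.173 over the 6 fits). The median log2 difference over the glycolysis list was 0.13, and 0.423% of all genes tested rose in the septic step.

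Few cell cycle genes passed the test. Of 25 DNA replication genes, edgeR called 0, with 1 at an unadjusted p under 0.05, 1 called by DESeq2 and 1 by limma, and the median log2 difference was 0.11. Of 25 genes of G2 and M phase, 1 rose (Nusap1, a spindle protein) and 0 fell. By edgeR's unadjusted p under 0.05, 13 were higher and 0 lower, against 1897 of all 18198 genes in either direction. DESeq2 called 1 higher and limma 5. The septic groups did not overlap for 13 of the 25, all higher in proNeu2, against 20.4% of all genes tested. All 25 differences were positive, against 9240 of all 18198 genes tested, and the median was 0.34, close to the control median of 0.34. Nusap1 stood at 102, 98.3 and 129 CPM in septic proNeu2 and at 60.8, 61.1 and 72.8 CPM in septic proNeu1 (log2 difference 0.76 ± 0.17, adjusted p = 0.0264). Of 16 G1 cyclins and CDK inhibitors, 2 rose and 0 fell, where 0.423% of all genes tested rose. Ccnd3, a D-type cyclin, stood at 907, 1001 and 1018 CPM in septic proNeu2 and at 568, 668 and 714 CPM in septic proNeu1 (0.59 ± 0.10, adjusted p = 0.00558). Cdkn2d, the p19 inhibitor of CDK4 and CDK6, rose by 0.82 ± 0.20 (adjusted p = 0.0443). Ccnd3 lost its call without septic proNeu1 replicate 1 (adjusted p = 0.0964), and Nusap1 and Cdkn2d kept theirs only without septic proNeu2 replicate 1, with adjusted p up to 0.227 and 0.305.

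**Figure D4:**
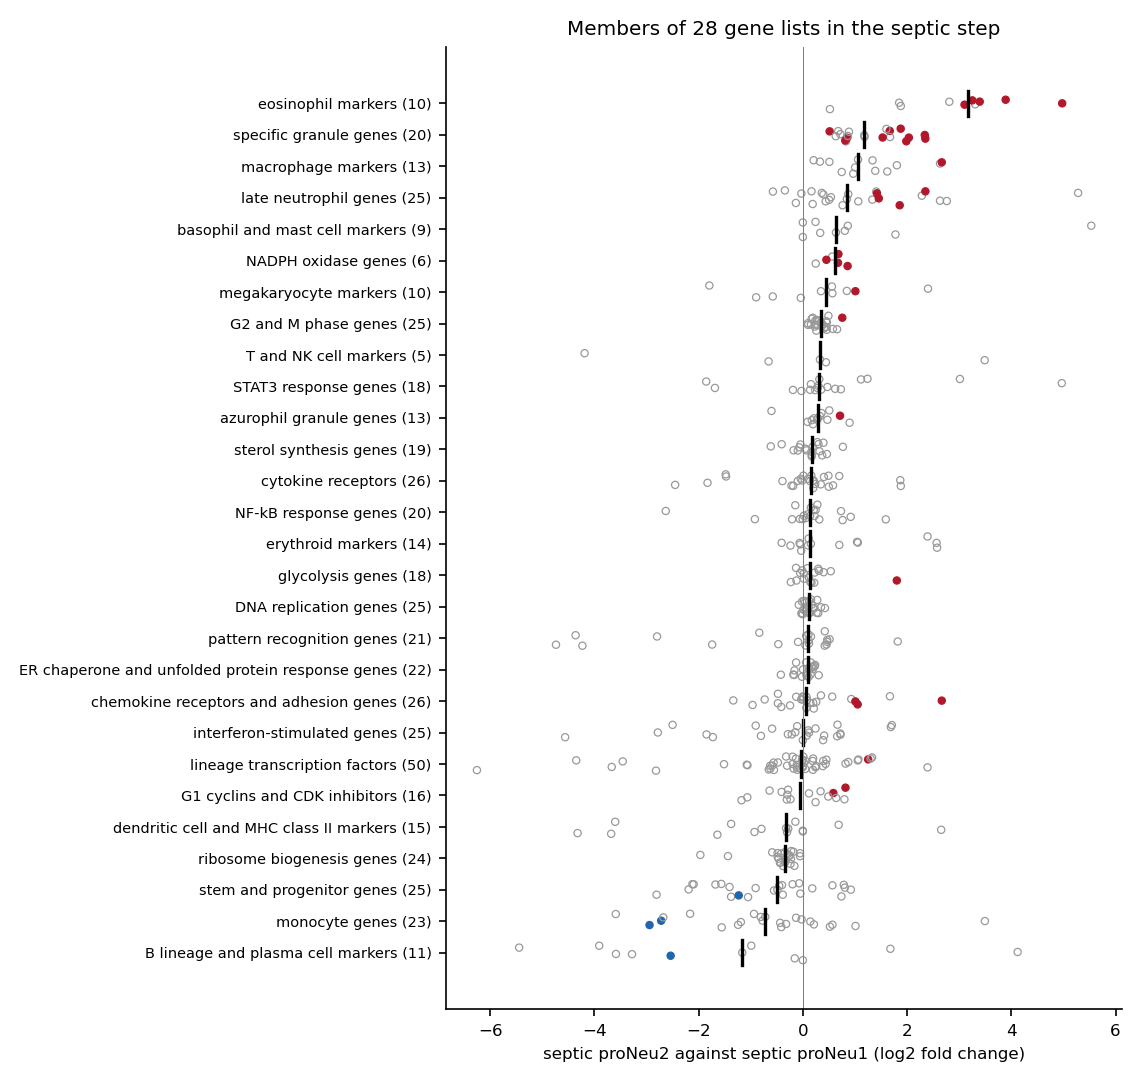
Log2 fold change of septic proNeu2 over septic proNeu1 (horizontal axis) for each tested member of 28 gene lists, 1 point per gene, with filled points for called genes (red higher, blue lower) and a bar at the list median. Eosinophil markers and specific granule genes have the highest medians (3.18 and 1.18), and B lineage and monocyte genes the lowest (-1.16 and -0.72).

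The largest rises among called genes at 20 CPM or more were those of Prg2 and Epx, markers of the eosinophil lineage. Of 10 eosinophil genes, 5 rose (Prg2, Prg3, Epx, Ear2 and Ear6), 0 fell and all 10 had positive differences, with a median log2 difference of 3.18. Of all 18198 genes tested, 0.423% rose and 9240 had a positive difference. In control marrow 0 of the 10 were called and the median was 0.22. Prg2, the major basic protein of the eosinophil granule, stood at 122, 55.6 and 68.2 CPM in septic proNeu2 and at 13, 7.85 and 4.08 CPM in septic proNeu1, a log2 difference of 3.39 ± 0.48 (adjusted p = 0.000477). Epx, the eosinophil peroxidase, stood at 62.8, 21.7 and 42.5 CPM in septic proNeu2 and at 6.26, 4.18 and 3.6 CPM in septic proNeu1, a log2 difference of 3.25 ± 0.43 (adjusted p = 0.000341). Ear2, an eosinophil-associated ribonuclease, stood at 6.25, 3.67 and 3.42 CPM in septic proNeu2 and at 0, 0.294 and 0 CPM in septic proNeu1, 274 against 8 reads in all. The lowest septic proNeu2 library lay above the highest septic proNeu1 library for each of the 3, and each was called in all 6 fits that left out a library. The 5 calls were 3 without septic proNeu1 replicate 1 or 3. Ear1, Ear2 and Ear6 are near-identical paralogs, so how reads divided between them is uncertain.

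In control marrow Prg2 stood at 26, 15 and 18.5 CPM in proNeu2 and at 28.5, 25.5 and 18.6 CPM in proNeu1, groups that overlapped, and Epx at 6.58, 4.29 and 7.67 CPM in proNeu2 and at 10.3, 12.5 and 4.82 CPM in proNeu1. The interactions were 3.67 ± 0.63 for Prg2 (adjusted p = 0.00864), 3.80 ± 0.59 for Epx (adjusted p = 0.00284) and 6.21 ± 0.91 for Ear2 (adjusted p = 0.00127). Septic proNeu1 also lay below control proNeu1 in Prg2, in every library. The summed level of the 10 genes was 298, 156 and 186 CPM in septic proNeu2 and 70.1, 63.1 and 48.3 CPM in septic proNeu1, and no gene of the list was at 0 throughout either group. Along the septic path the sum was 4537, 2361 and 3572 CPM in Ly6C- GMP and 137, 131 and 146 CPM in preNeu, so septic proNeu1 was the lowest of the 4 stages. Receptors of the lineage did not pass the test: Siglecf stood at 79.1, 57.7 and 53.3 CPM in septic proNeu2 and at 47.6, 45.8 and 39.3 CPM in septic proNeu1, and Ccr3 at 1.64, 0.593 and 0.0912 CPM in septic proNeu2 and at 0, 0 and 0.192 CPM in septic proNeu1. Whether eosinophil-committed cells within the gate account for these values was not tested.

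Markers of other cells that the gates could hold gave few calls. Of 14 erythroid markers and of 9 basophil and mast cell, 5 T and NK cell and 15 dendritic cell markers tested, edgeR and DESeq2 called 0 in either direction; limma called 1 erythroid and 1 basophil and mast cell gene higher, and 2 and 1 of these passed an unadjusted p of 0.05. Of 13 macrophage markers the sort marker Vcam1 alone was called, and of 10 megakaryocyte markers Cd9 alone was. Over all genes tested, 0.72% were called. All 13 macrophage differences were nevertheless positive, against 9240 of all 18198 genes tested. Their median log2 difference was 1.06 in septic marrow and 1.17 in control marrow. The macrophage list summed to 442, 492 and 488 CPM in septic proNeu2 and to 147, 235 and 202 CPM in septic proNeu1. Slc40a1, the iron exporter ferroportin, made up much of that sum, at 280.4, 305 and 316 CPM in septic proNeu2 and at 105, 188 and 167 CPM in septic proNeu1 (log2 difference 0.97 ± 0.45, adjusted p = 0.439). The defining macrophage genes C1qa, C1qb and C1qc were near 0, at up to 1.37 CPM in any septic proNeu2 library and up to 1.19 CPM in any septic proNeu1 library.

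Among the genes that fell were 2 of the monocyte path. Irf8, the transcription factor that directs progenitors to the monocyte and dendritic fates, stood at 6.98, 3.44 and 3.83 CPM in septic proNeu2 and at 68.3, 15.9 and 29.2 CPM in septic proNeu1. Ccr2, the chemokine receptor by which monocytes leave the marrow, stood at 7.48, 4.98 and 12.1 CPM in septic proNeu2 and at 70.5, 41.8 and 51.8 CPM in septic proNeu1. Neither gene overlapped between the groups, and the log2 differences were -2.94 ± 0.66 for Irf8 (adjusted p = 0.0272) and -2.72 ± 0.43 for Ccr2 (adjusted p = 0.00151). Of 23 monocyte genes tested 2 fell and 0 rose, with a median log2 difference of -0.72. In control marrow 12 fell and 0 rose, with a median of -1.46. Among all genes tested, 0.297% fell in septic marrow and 1.48% in control marrow. No monocyte gene passed the interaction test, so the septic and control steps were not shown to differ in this list. Control proNeu2 held 3.07, 9.29 and 4.54 CPM of Irf8, and control proNeu1 held 195, 220.3 and 161 CPM, above every septic proNeu1 library. The Irf8 call was lost without septic proNeu2 replicates 2 or 3 and without septic proNeu1 replicates 1 or 3, with adjusted p over those 6 fits from 0.0184 to 0.238, and the Ccr2 call held in all 6. Csf1r, through which monocytes sense the growth factor CSF1, stood at 27.3, 31.2 and 20.4 CPM in septic proNeu2 and at 70.1, 34.1 and 28 CPM in septic proNeu1, groups that overlapped (log2 difference -0.72 ± 0.44, adjusted p = 0.616). The falls did not continue into septic preNeu, with Irf8 at 25.9, 47.5 and 25.1, Ccr2 at 148, 163 and 95.1 and Csf1r at 75.5, 117 and 63.7 CPM. The monocyte list summed to 2414, 2401 and 2094 CPM in septic proNeu1 and 1878, 2058 and 1922 CPM in septic proNeu2. In septic preNeu it summed to 3418, 4726 and 3247 CPM.

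Stem and progenitor genes gave 1 fall and 0 rises among 25, where 0.297% of all genes tested fell, with a median log2 difference of -0.49. The gene that fell was Lmo2, a bridging factor of early haematopoietic transcription complexes, at 81.2, 42.5 and 39.4 CPM in septic proNeu2 and at 125, 126 and 132 CPM in septic proNeu1 (log2 difference -1.23 ± 0.28, adjusted p = 0.0302). In control marrow Lmo2 differed by 0.10 ± 0.28 (adjusted p = 0.945), and the interaction was -1.33 ± 0.39 (adjusted p = 0.168). Its septic call was lost in 5 of the 6 fits that left out a library, all but that without septic proNeu2 replicate 1, with adjusted p from 0.00614 to 0.255. Cd34, a progenitor surface marker, stood at 7.89, 5.63 and 6.02 CPM in septic proNeu2 and at 48.8, 24.7 and 17.8 CPM in septic proNeu1, without overlap, and its log2 difference of -2.19 ± 0.60 missed the threshold (adjusted p = 0.0832). Kit, the stem cell factor receptor, stood at 139.7, 132 and 131 CPM in septic proNeu2 and at 193, 151 and 207 CPM in septic proNeu1 (-0.45 ± 0.19, adjusted p = 0.355).

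Of 11 B lineage markers tested, 1 fell and 0 rose, where 0.297% of all genes tested fell, and the median log2 difference was -1.16. The gene that fell was Ighm, the immunoglobulin heavy constant mu gene. It stood at 48.7, 17.8 and 14.7 CPM in septic proNeu2 and at 172, 238 and 62.1 CPM in septic proNeu1 (log2 difference -2.54 ± 0.54, adjusted p = 0.0208). The call was lost without septic proNeu2 replicates 2 or 3 and without septic proNeu1 replicates 1 or 2, with adjusted p over the 6 fits from 0.00938 to 0.181. The list summed to 77.6, 55.5 and 36.7 CPM in septic proNeu2 and to 251, 317 and 105 CPM in septic proNeu1. In control marrow it summed to 416, 540 and 430 CPM in proNeu2 and to 3696, 6419 and 3475 CPM in proNeu1, so proNeu2 had the lower sum in both marrows and both septic stages lay below their controls. Whether B lineage cells or their free RNA in the proNeu1 gates account for this was not tested.

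Among 50 lineage transcription factors, 1 rose and 0 fell, where 0.423% of all genes tested rose, with a median log2 difference of -0.04. Id2, an inhibitor of E proteins, stood at 87.8, 141 and 139 CPM in septic proNeu2 and at 30.9, 74.4 and 47.6 CPM in septic proNeu1 (log2 difference 1.25 ± 0.26, adjusted p = 0.0175), close to the control difference of 1.32 ± 0.26. The septic call was lost when any 1 of the 4 deciding libraries was left out (adjusted p from 0.00273 to 0.169 over the 6 fits). Tcf3, which encodes the E proteins E12 and E47 and was not in that list, fell by 2.03 on the log2 scale (SE 0.39, adjusted p = 0.0106), at 30.2, 23.4 and 23.8 CPM in septic proNeu2 and 115, 115 and 85.8 CPM in septic proNeu1. In control marrow Tcf3 stood at 70.2, 75.5 and 106 CPM in proNeu2 and at 52.1, 55.5 and 73.2 CPM in proNeu1, and the interaction was -2.50 ± 0.54 (adjusted p = 0.0299). The septic call of Tcf3 was lost without septic proNeu2 replicates 2 or 3 and without septic proNeu1 replicate 1 (adjusted p from 0.0177 to 0.0888). The Tcf3 interaction was called in 11 of 19 alternatives, with adjusted p from 0.00122 to 0.104. Tcf3 also varied between libraries of the neighbouring septic groups, at 36.4, 63 and 139 CPM in Ly6C- GMP and 20.3, 31.6 and 62.4 CPM in preNeu. The C/EBP genes that drive granule synthesis were not called. Cebpe, needed for specific granules, stood at 145, 64.3 and 52.4 CPM in septic proNeu2 and at 104, 149 and 132 CPM in septic proNeu1, groups that overlapped (log2 difference -0.56 ± 0.42, adjusted p = 0.726). In control marrow it stood at 493, 531 and 453 CPM in proNeu2 and at 230.3, 202 and 282 CPM in proNeu1, and the interaction was -1.61 ± 0.60 (adjusted p = 0.344). Cebpa, needed for entry into the granulocyte path, stood at 22.5, 15.6 and 13.1 CPM in septic proNeu2 and at 44.9, 35.3 and 27.4 CPM in septic proNeu1, without overlap (-1.06 ± 0.29, adjusted p = 0.0833). Gfi1, a repressor of monocyte genes, stood at 82.3, 76.6 and 51.6 CPM in septic proNeu2 and at 63.7, 96.6 and 67.4 CPM in septic proNeu1 (-0.12 ± 0.27, adjusted p = 0.983).

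Outside these lists, the genes named for steep falls at 20 CPM or more included Sap30, Wrnip1 and Ybx1, none of which was called lower in control marrow. Some called genes at lower levels had larger differences. Sap30, a subunit of the Sin3 histone deacetylase complex, stood at 7.12, 5.69 and 3.56 CPM in septic proNeu2 and at 34, 41.1 and 27.7 CPM in septic proNeu1 (log2 difference -2.65 ± 0.53, adjusted p = 0.0152). Wrnip1, an ATPase that acts at stalled replication forks, stood at 18.4, 9.36 and 14.6 CPM in septic proNeu2 and at 83.7, 88 and 73.9 CPM in septic proNeu1 (-2.53 ± 0.56, adjusted p = 0.0264). Ybx1, a cold-shock-domain protein that binds mRNA, stood at 189.7, 161 and 126 CPM in septic proNeu2 and at 540.0, 498 and 359 CPM in septic proNeu1 (-1.55 ± 0.37, adjusted p = 0.0384). None overlapped between septic groups. In control marrow the mean was higher in proNeu2 for all 3. Control proNeu2 held 25.7, 20.5 and 39.9 CPM of Sap30 and control proNeu1 held 15.9, 15.8 and 31.8 CPM, groups that overlapped (control log2 difference 0.43 ± 0.49, adjusted p = 0.751). Control proNeu2 held 51.8, 40.1 and 66.2 CPM of Wrnip1 and control proNeu1 held 21.1, 16.5 and 17.8 CPM. Control proNeu2 held 186, 366 and 404 CPM of Ybx1 and control proNeu1 held 107, 108 and 141 CPM. Ybx1 was the 1 gene called in both steps in opposite directions (control log2 difference 1.42 ± 0.37, adjusted p = 0.0309). The interactions were -3.08 ± 0.72 for Sap30 (adjusted p = 0.048), -4.05 ± 0.78 for Wrnip1 (adjusted p = 0.0125) and -2.97 ± 0.52 for Ybx1 (adjusted p = 0.00864). The septic falls of Wrnip1 and Ybx1 were each called in 1 of the 6 fits that left out a library, that without septic proNeu2 replicate 1, with adjusted p up to 0.188 and 0.267. That of Sap30 was lost without septic proNeu2 replicates 2 or 3 and without septic proNeu1 replicate 1, with adjusted p from 0.0221 to 0.113. The 3 genes also varied widely between libraries of the neighbouring septic groups. Septic Ly6C- GMP held 10.6, 36.4 and 81.5 CPM of Wrnip1, 7.72, 18.4 and 38.8 of Sap30 and 180, 196 and 491 of Ybx1. Septic preNeu held 13.5, 32.4 and 59.2 CPM of Wrnip1, 19.8, 25.3 and 47.3 of Sap30 and 141, 187 and 308 of Ybx1. The part of this spread in the septic falls was not tested.

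Ddx51 and Utp18, which act in the maturation of ribosomal RNA, also fell, by 2.34 and 2.16 on the log2 scale (adjusted p = 0.0461 and 0.0208). Utp18 stood at 34.9, 15.1 and 12.8 CPM in septic proNeu2 and at 92.5, 99.1 and 89.7 CPM in septic proNeu1. Ddx51 was called in none of the 6 fits that left out a library, with adjusted p from 0.0676 to 0.271, and Utp18 lost its call when any 1 of the 4 deciding libraries was left out (adjusted p from 0.00897 to 0.177). Neither was in the list of 24 ribosome biogenesis genes, in which edgeR called 0 genes and 0 of the differences were positive, with a median of -0.34. Of all 18198 genes tested, 9240 had a positive difference. In that list 8 genes were lower at an unadjusted p under 0.05, DESeq2 called 2 lower and limma 10. The control median was -0.38, with 2 genes called lower. Npm1, the nucleolar chaperone nucleophosmin, stood at 1339, 1425 and 1644 CPM in septic proNeu2 and at 1993, 1985 and 2175 CPM in septic proNeu1 (log2 difference -0.48 ± 0.24, adjusted p = 0.495).

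Other genes that fell by the naming rule were Fnta, a farnesyltransferase subunit (-1.88), Atp13a2, a lysosomal P-type ATPase (-1.79), Pip4p1, a phosphoinositide phosphatase (-1.68), Kctd3 (-1.53), Pi4k2b, a phosphatidylinositol 4-kinase (-1.47), and Kansl2, a subunit of a histone acetyltransferase complex (-1.42), with adjusted p between 0.0208 and 0.043. Septic proNeu2 did not overlap septic proNeu1 in these genes, and their control differences ran from -0.26 to 0.89. Each was called in 1 or 2 of the 6 fits that left out a library, always in that without septic proNeu2 replicate 1.

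Of the 77 genes that passed the interaction test, 66 had opposite signs in the 2 marrows, 48 of them lower in septic proNeu2 and higher in control proNeu2 and 18 the reverse. Of the 77, 22 were called in the septic step itself and 38 in the control step. Among the genes with the lowest p were some whose septic step was not called. Milr1, an inhibitory receptor of mast cells and myeloid cells, stood at 32.5, 28.1 and 19.3 CPM in septic proNeu2 and at 35.5, 34.1 and 36.8 CPM in septic proNeu1, while control marrow held 2.5, 3.27 and 3.99 CPM in proNeu2 and 25.5, 28 and 16.7 CPM in proNeu1. Its interaction was 2.43 ± 0.31 (adjusted p = 0.000193). Ifitm3, an antiviral membrane protein, stood at 37.5, 58.4 and 82.1 CPM in septic proNeu2 and at 34.3, 46.3 and 48.6 CPM in septic proNeu1, against 2.88, 0.765 and 2.88 CPM in control proNeu2 and 9.33, 6.02 and 7.23 CPM in control proNeu1. Its interaction was 2.20 ± 0.40 (adjusted p = 0.00864). Both were called lower in control proNeu2, at log2 differences of -2.84 ± 0.24 for Milr1 and -1.75 ± 0.30 for Ifitm3, and neither was called in the septic step, at -0.41 ± 0.21 (adjusted p = 0.514) and 0.46 ± 0.25 (adjusted p = 0.561). The number of interaction calls ran from 28 to 124 when 1 of the 12 proNeu libraries was left out, lowest without septic proNeu2 replicate 3 and highest without septic proNeu2 replicate 1. The excess of negative interactions (51, against 26 positive) was not kept in each of these fits: it was 13 against 15 without septic proNeu2 replicate 3, 17 against 19 without septic proNeu2 replicate 2, 22 against 23 and 23 against 30 without control proNeu2 replicates 2 and 3, and 16 against 18 and 18 against 18 without control proNeu1 replicates 1 and 2.

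Set along the septic path, the 77 genes that rose lay mostly on an ascending course. In 70 of them the mean in septic preNeu was above that in septic proNeu2, in 63 the Ly6C- GMP mean was below that of proNeu1, and 62 were in ascending order over Ly6C- GMP, proNeu1, proNeu2 and preNeu. Of the 77, 60 had their highest mean over the 11 groups in a preNeu group and 1 in septic proNeu2. Specific granule transcripts summed to 1655, 2278 and 2293 CPM in septic Ly6C- GMP and to 81992, 73506 and 66448 CPM in septic preNeu, with proNeu1 and proNeu2 between. The 54 genes that fell did not follow a descending course: in 40 the septic preNeu mean was above that of septic proNeu2, in 38 the Ly6C- GMP mean was below that of proNeu1, and 3 were in descending order over the 4 stages. Of the 54, 22 had their lowest mean over the 11 groups in septic proNeu2. Averaged over the 54, log2 CPM relative to each gene's mean over the 33 libraries was -1.03, -1.29 and -1.33 in septic proNeu2. The next lowest library was control preNeu replicate 2, at -0.89. These values share the septic proNeu libraries with the calls and are descriptions.

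**Figure D5:**
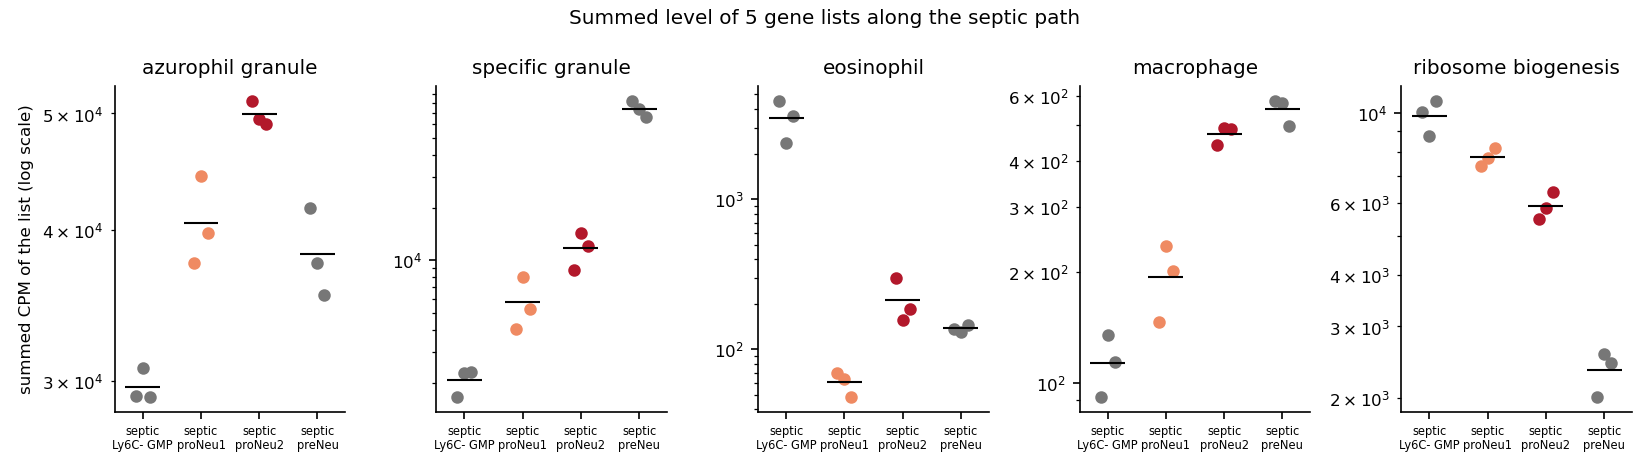
Summed CPM (log axis) of 5 gene lists in each septic library along the path Ly6C- GMP, proNeu1, proNeu2 and preNeu, with 1 point per library and a bar at the group mean. Specific granule transcripts climb at every stage to 66448 to 81992 CPM in preNeu, ribosome biogenesis transcripts decline at every stage, and eosinophil transcripts are lowest in proNeu1 (48.3 to 70.1 CPM).

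Of the 28 lists, 13 held no gene called by edgeR in the septic step, among them the interferon-stimulated, NF-kB response, STAT3 response, cytokine receptor and pattern recognition genes. Of their 243 tested members 38 had an unadjusted p under 0.05, 19 higher and 19 lower, DESeq2 called 7 and limma 23. Over all 18198 genes tested, 1897 had an unadjusted p under 0.05 in edgeR, DESeq2 called 460 and limma 884. The medians were 0 for interferon-stimulated genes, 0.15 for NF-kB response genes and 0.31 for STAT3 response genes. Ly6c2, a surface antigen of both proNeu stages, stood at 770.5, 718 and 676 CPM in septic proNeu2 and at 657, 693 and 609 CPM in septic proNeu1 (log2 difference 0.14 ± 0.19, adjusted p = 0.915). Cd81, a tetraspanin used to define the proNeu gate, stood at 289, 299 and 299 CPM in septic proNeu2 and at 211, 246 and 218 CPM in septic proNeu1, without overlap (0.40 ± 0.14, adjusted p = 0.261).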

How the data were processed

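RNA of sorted bone marrow cells was amplified with SMARTSeq v2, made into libraries with Nextera XT and sequenced as read pairs, per the labels' protocols. Per the submitters' processing notes, the authors used STAR, featureCounts and GRCm38. The versions, the strand setting and the treatment of reads with several positions were not given in the sources used here. This leaves antisense genes, overlapping genes and near-identical paralogs uncertain. Raw counts are deposited for 54752 features in 33 libraries, of which 54723 were matched to a symbol. Even numbers made up 76.2% of the counts between 1 and 10, which happens when each mate is counted, so independent fragments may be fewer than the counts.

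All 33 libraries in 11 groups entered 1 fit by edgeR 4.0.16 (R 4.3.3) with TMM factors and robust quasi-likelihood tests on the 18198 genes that filterByExpr kept (22 residual degrees of freedom, biological coefficient of variation 0.472). Calls are at a Benjamini-Hochberg adjusted p under 0.05 over all genes tested. The contrasts were septic proNeu2 minus septic proNeu1, control proNeu2 minus control proNeu1, and the difference of these 2. CPM values are TMM-scaled, ± is a standard error for log2 differences, and n is 3 libraries a group. The groups hold 3 biological replicates, and the labels do not say whether each is 1 animal. Alternatives were DESeq2 1.42.0, limma 3.58.1 with quality weights, RLE factors, no or a stricter filter (5 CPM in 3 libraries), halved counts, a test against a fold change of 1.5, only the 12 proNeu or the 6 septic libraries, and leaving out each library. The fitting steps were tested on simulated data.

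Genes are named by a rule. It takes the 15 steepest rises and 15 steepest falls among called genes whose higher group averages at least 20 CPM and whose libraries do not overlap, leaving out predicted genes, pseudogenes and variable segments. It adds up to 3 called members of each of 28 lists in each direction, the 3 most abundant members of each list of other cells, the 10 genes at 20 CPM or more with the lowest interaction p, and a fixed panel. One gene that the rule names is not reported here. The libraries compared, the rule and the lists were chosen with earlier results of these data known, and support nothing on their own. Promoter windows are the first listed start of each gene in RefSeq's annotation of GRCm38.p6.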

Additional observations from a re-analysis of the deposited data

Results flagged for a closer look

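For 18 named genes the step between proNeu1 and proNeu2 differed between septic and control marrow in the test of the difference itself, and each value below is the log2 difference of the septic step minus that of the control step, from edgeR with Benjamini-Hochberg adjustment over 18198 genes. The eosinophil genes stood out, with 6.21 for Ear2 (adjusted p = 0.00127), 3.80 for Epx (adjusted p = 0.00284) and 3.67 for Prg2 (adjusted p = 0.00864). Ear2 held its call in 18 of 19 alternatives, all but the fit of the 12 proNeu libraries alone (adjusted p from 3.15e-09 to 0.0552), and Epx and Prg2 held theirs in 18 of 19, all but limma, with adjusted p up to 0.362 and 0.338.

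Neutrophil and membrane genes on the positive side were Ifitm6 at 3.30, Ltf at 3.02, Slc2a3 at 2.82, Milr1 at 2.43 and Ifitm3 at 2.20. Milr1 was called in 19 of 19 alternatives, with adjusted p from 4.74e-10 to 0.0205. Ifitm6 and Ifitm3 were called in 17 of 19 each, not by limma and not in the fit of the 12 proNeu libraries. Slc2a3 was called in 17 of 19, not without septic proNeu2 replicate 3 and not without control proNeu1 replicate 1, with adjusted p from 0.000124 to 0.062.

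On the negative side, where the transcript was lower in septic proNeu2 relative to the control step, were Riox1 at -4.12, Wrnip1 at -4.05, Sap30 at -3.08, Ybx1 at -2.97, Tcf3 at -2.50, Kctd3 at -2.42, Pi4k2b at -2.04, Psme3 at -1.98, Tmem248 at -1.80 and Edem1 at -1.51. Riox1, a nucleolar histone demethylase, stood at 20.4, 13 and 11.7 CPM in septic proNeu2 and at 72.2, 72 and 45.2 CPM in septic proNeu1. In control marrow Riox1 stood at 23.9, 23.3 and 53.7 CPM in proNeu2 and at 4.39, 5.99 and 13.4 CPM in proNeu1. It also varied between libraries of septic Ly6C- GMP (17.7, 34.1 and 63.8 CPM) and septic preNeu (14.6, 37.5 and 58.1 CPM). Psme3, the proteasome activator PA28 gamma, stood at 82.5, 69.9 and 72.4 CPM in septic proNeu2 and at 195, 190.3 and 146 CPM in septic proNeu1, against 117, 127 and 177 CPM in control proNeu2 and 82.4, 63.6 and 105 CPM in control proNeu1. Riox1, Ybx1, Kctd3, Psme3, Tmem248 and Edem1 were called in 19 of 19 alternatives. Wrnip1 was called in 17 of 19 (adjusted p up to 0.0563), Tcf3 and Pi4k2b in 11 of 19 each (adjusted p up to 0.104 and 0.129) and Sap30 in 8 of 19 (adjusted p from 0.00273 to 0.179).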

How the results depend on the processing

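The number of genes called in the septic step (131) was 460 with DESeq2, 884 with limma, 202 with the stricter filter, 375 in the fit of the 12 proNeu libraries, 661 in the fit of the 6 septic proNeu libraries and 13 in the test against a fold change of 1.5. It was 104 without a filter, 132 with RLE factors and 173 with halved counts, and ran from 17 to 214 when 1 library was left out. For the control step (555) it was 1119 with DESeq2, 922 in the fit of the 12 proNeu libraries and 107 in the test against a fold change of 1.5, and ran from 226 to 446 when 1 library was left out. It was 226 and 307 without control proNeu2 replicates 2 and 3, and 300, 297 and 334 without control proNeu1 replicates 1, 2 and 3. For the interaction (77) it was 250 with DESeq2, 124 with limma and 143 in the fit of the 12 proNeu libraries, and ran from 28 to 124 when 1 library was left out. It was 124, 36 and 28 without septic proNeu2 replicates 1, 2 and 3, 42 and 41 without septic proNeu1 replicates 1 and 2, 121 and 45 without control proNeu2 replicates 1 and 2, and 34 and 36 without control proNeu1 replicates 1 and 2. Without a filter the septic calls were 77 higher and 27 lower. The fits of fewer libraries estimate the spread from those libraries only, and the cause of the other changes was not tested.

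Of 1179 alternative values for 79 gene results, 939 kept their direction and side of the threshold, 197 lost the call, 32 gained one and 11 changed sign, none of them in a called gene. The sign changes came when 1 library was left out, where the log2 difference ran from -0.326 to 4.1478 for Il7r, from -0.2457 to 0.1142 for Gfi1, from -0.051 to 0.2328 for Tfrc, from -0.2573 to 0.0443 for Bst2, from -0.6544 to 0.285 for H2-Ab1, from -0.0249 to 0.3142 for Car2, from -0.0159 to 0.897 for Itga2b and from -3.7652 to 5e-04 for Vwf. No paired analysis was possible because the labels carry no replicate numbers. Depth limits septic proNeu1 most, at 6.43 Mcounts in replicate 1. Counting error is larger there for genes of a few CPM, such as the Ear genes, and p-values reflect the spread between 3 libraries a group.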

Other observations

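Genes below were chosen after their values were seen. Both subunit genes of the cytokine interleukin 27 were higher in septic proNeu2. Ebi3 stood at 30.7, 27.4 and 35.4 CPM in septic proNeu2 and at 15.1, 12.6 and 15.5 CPM in septic proNeu1, without overlap (log2 difference 1.12 ± 0.19, adjusted p = 0.00341), and was called in all 6 fits that left out a library. Il27 stood at 1.23, 1.66 and 3.05 CPM in septic proNeu2 and at 0, 0.294 and 0.0959 CPM in septic proNeu1 (3.61 ± 0.80, adjusted p = 0.0264), and lost its call without septic proNeu2 replicates 2 or 3 and without septic proNeu1 replicates 1 or 3, with adjusted p over the 6 fits from 0.0239 to 0.173. Control proNeu2 held 38.3, 36.4 and 32 CPM of Ebi3 and control proNeu1 29.2, 23.3 and 23.7 CPM.

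Ifi203 and Mndal, neighbouring members of the interferon-inducible p200 family, were lower in septic proNeu2. Mndal stood at 0.821, 1.66 and 1.09 CPM in septic proNeu2 and at 9.54, 5.87 and 5.56 CPM in septic proNeu1 (log2 difference -2.53 ± 0.45, adjusted p = 0.00558), and was called in all 6 fits that left out a library. Ifi203 stood at 0.0912, 0 and 0.182 CPM in septic proNeu2 and at 6.56, 2.31 and 1.82 CPM in septic proNeu1 (adjusted p = 0.0343), and was called in none of those 6 fits, with adjusted p from 0.0518 to 0.19. These genes are close paralogs, so how reads divided between them is uncertain. Dpp4, the surface peptidase CD26, stood at 0.456, 0.948 and 0.274 CPM in septic proNeu2 and at 4.92, 5.32 and 2.97 CPM in septic proNeu1 (fold 0.125, adjusted p = 0.0208). Dpp4 lost its call without septic proNeu2 replicates 1 or 3 and without septic proNeu1 replicates 1 or 2, with adjusted p over the 6 fits from 0.0309 to 0.169.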
